A study of Mus musculus with 12 samples.

Results

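The m6A reader genes described here are Ythdf1, Ythdf2, Ythdf3, Ythdc1, Ythdc2, Igf2bp2, Fmr1 and Prrc2a. Their members were chosen by gene name, as those rows of the 6 deposited peak lists whose gene name was one of the 8 symbols. The 8 genes stood among 11548 genes with a peak in any list, and they held 98 of 95812 listed peaks. Peaks from different lists were joined into 1 position wherever they overlapped by 1 base or more, which gave 22 reader positions of 26654 in all.

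The lists came from colon of wild-type male C57BL/6J mice aged 6 to 8 weeks and weighing 20 to 22 g. A group of 3 mice was fed normally, and a group of 3 received 2,4,6-trinitrobenzenesulfonic acid (TNBS) at 5% w/v into the colon, a hapten that provokes colitis and serves as a mouse model of inflammatory bowel disease. An anti-m6A antibody (N6-methyladenosine) enriched the marked RNA of each mouse, and the authors deposited 1 peak list per mouse. Whole colon holds many cell types, and a vehicle for the normal mice is not named in the labels.

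Readers are proteins that recognise m6A in RNA and pass the mark on to a fate of the transcript. The proteins Ythdf1, Ythdf2 and Ythdf3 carry a YTH domain and act in the cytoplasm, where they are known for effects on translation and on mRNA decay. Ythdc1 is the nuclear YTH protein and is known for splicing and export, and Ythdc2 is an RNA helicase with a YTH domain known for its part in meiosis. Igf2bp2, Fmr1 and Prrc2a have no YTH domain and have been described as readers that stabilise or transport their targets. The measurements below concern the peaks listed on the readers' own transcripts and say nothing of how much of each protein was present.

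At a transcript start annotated by RefSeq, 5 of the 6 readers with a start window in its table had a listed peak in at least 1 library. That of Prrc2a was listed in normal 1 alone, at percentile 1.44 of the score. The share of all genes with a peak at such a start was not counted, so the number is not a trait of the readers. The start in the table is the first base of the gene span for Ythdf1 and Igf2bp2 and lies inside the span for Fmr1, Ythdc1 and Prrc2a, whose spans begin at 68678536, 86803980 and, on the minus strand, 35165321. The 5 windows are shown because they let the edge of the peak be read against the first base in the table. Each line gives 15 bases before the start and 15 bases from it on, 5′ to 3′ on the gene's strand in GRCm38.p6, and capitals mark bases that lay inside the listed peak of at least 1 library.
Ythdf1 (chr2:180920922-180920951, minus strand): acGTCGCGTAGCTTCGTCCCAGCCGCCGCG
Ythdc1 (chr5:86804251-86804280, plus strand): GCAGGCTCCATTTTAGCGCCGCCCGGCGTC
Igf2bp2 (chr16:22163285-22163314, minus strand): ggagcgcgcggcgcgGGACGGGCAGGGCGC
Fmr1 (chrX:68678526-68678555, plus strand, the upstream of its annotated starts): gggtcacgtgacatcGTTTGACTGTTTACA
Prrc2a (chr17:35164863-35164892, minus strand): CCCGGATGGGCCGTTAGTCGGAGCCCAGCC
In Igf2bp2 the peak stopped exactly at the annotated first base in 5 of the 6 libraries, and in Fmr1 it began exactly at the upstream start in 3 of the 6. In Ythdf1 it reached 13 bases upstream of the table's start, in Ythdc1 45 bases and in Prrc2a 20 bases, so that the peaks of Ythdc1 and Prrc2a began 241 and 424 bases inside the gene span. Other distances, and those in the plot of positions, count from the ends of the gene span. The letters GGAC, the core that m6A most often lies in, were found on the transcribed strand of the first 50 bases of Igf2bp2 and on the other strand in Ythdf1, and in neither strand of the other members' windows. Of 32851 such RefSeq windows, 18.9% held GGAC on the transcribed strand and 17.4% on the other strand. A match describes these letters and does not place a mark. Antibodies against m6A also bind the cap-adjacent mark m6Am, and at these starts the marks were not told apart. Sequences inside the other peaks are not given, since no genome was used here.

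The lists held 13992 to 16488 peaks in normal and 10971 to 19285 in TNBS libraries. The lowest false discovery rate of the peak caller in any list was 12.5%, and rates of 100% were given to 1, 0 and 3 reader peaks in the normal lists 1, 2 and 3 and to 8, 11 and 18 in the TNBS lists. Over whole lists this rate was given to 10.5%, 13.7% and 37.8% of peaks in the normal and to 66.6%, 100% and 100% in the TNBS lists. TNBS 2 stood apart as the shortest list. TNBS 1 and TNBS 3 had 0 peaks in a set of 6 male-specific Y genes, where the normal lists had 6 to 8 and TNBS 2 had 10, although the labels call all mice male. Of these peaks, Rbmy held 6, 5 and 6 in normal 1 to 3 and 5 in TNBS 2. Ddx3y and Uty had peaks in TNBS 2 alone, and Eif2s3y had none in any list. Of 10 markers of colon epithelium 4 had a peak in all 6 libraries (Vil1, Cdx1, Cdx2 and Krt20), Epcam and Lgals4 had one in TNBS 3 alone, and Muc2, Slc26a3, Car1 and Cdh1 had none. Of 5 smooth muscle markers the myosin Myh11 had a peak in all 6 libraries, Acta2 in 0 normal and 2 TNBS, Cnn1 in 1 and 2 and Des in 1 and 1, and Tagln had none. Of 6 leukocyte markers 4, 3 and 2 had a peak in the normal lists and 2, 0 and 2 in the TNBS lists. Ptprc was listed in 2 normal and 0 TNBS libraries, and Cd68 and Cd3e had no peak. Of 10 retina markers, included because the extraction text speaks of retina, Abca4 alone had a peak, in TNBS 2. A peak needs transcript as well as mark, so in these bulk samples fewer cells of a type, less RNA per cell and fewer marks cannot be told apart, and the part of cell makeup in the results was not tested.

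Peaks in the reader transcripts were listed at recurrent positions. Of the 8 readers 7 had a peak in all 6 libraries, where 48.1% of all genes with a peak did. Of the 22 reader positions 11 were listed in all 6 libraries, or 50% against 28.4% of all positions, and 3 were listed in 5, 2 in 4, 1 in 3, 1 in 2 and 4 in 1 library. The members were chosen with earlier results of these data known, and each had a peak in at least 1 list, so neither share is a test. Of 13 related binding proteins outside the members, 6 had a peak in any library and 3 in all 6. The 3 positions listed in 5 libraries lacked TNBS 2, the library missing from 71.4% of the 3536 such positions in the whole series. Of the 11 reader positions in all 6 libraries 8 had the same first and last base in every list, as did 51.7% of the 7569 in the series. Listed edges often coincided with annotated ones: in normal 1, 1259 peaks began on the first base of a gene span. Same bounds therefore do not measure how precisely a mark recurred, and how the edges were set was not tested. The median joined width of the 11 reader positions was 514 bases against 901 for those 7569, and all 22 reader positions ran from 80 to 1842 bases.

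**Figure D1:**
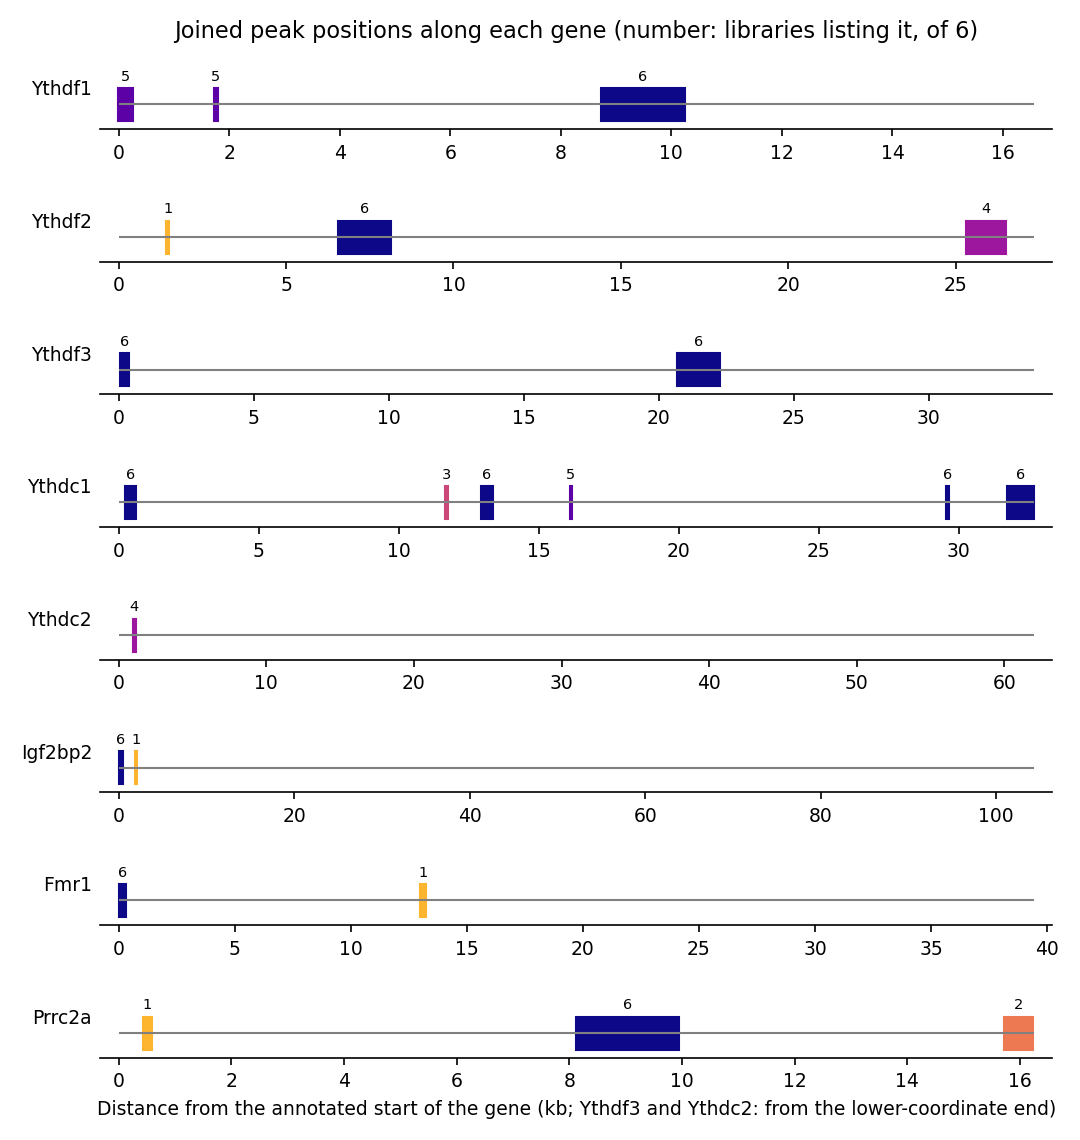
Joined peak positions of the 8 reader genes along each gene, with distance in kb from the 5′ end of the gene span on the x axis (for Ythdf3 and Ythdc2 from the end with the lower coordinate). Darker boxes and the number above each give how many of the 6 libraries listed the position, and 11 of the 22 positions were listed in all 6.

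**Figure D2:**
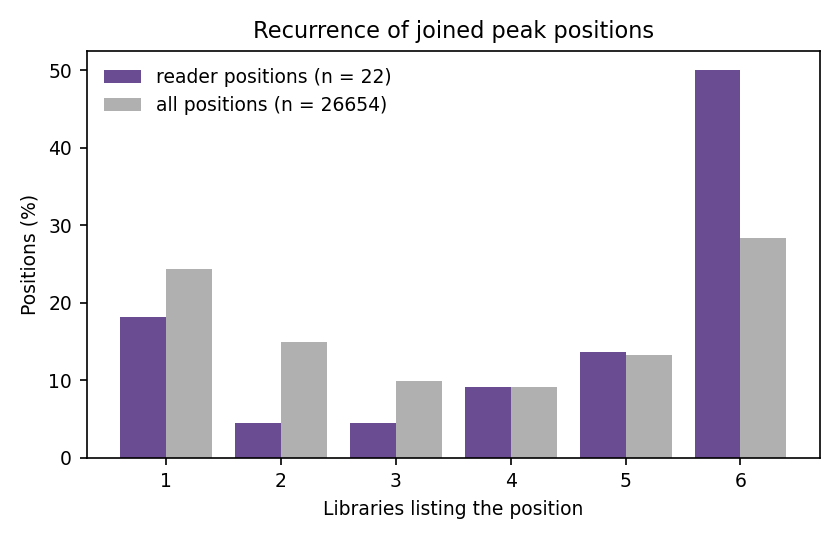
Share of joined positions, in percent, by the number of libraries that listed them, for the 22 reader positions and for all 26654 positions. The bars at 6 libraries stand at 50% for the readers and 28.4% for all positions.

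The cytoplasmic readers Ythdf1, Ythdf2 and Ythdf3 each had a long internal peak of 1521, 1584 and 1599 bases, respectively, listed in all 6 libraries with the same bounds in every list and at a score of 3100 in every list. The score is the peak caller's p on a scale of minus 10 log10, and from 8.65% to 18.8% of the peaks of a list reached 3100 or more, so many peaks of a list share this score. In Ythdf1 the long peak lay at chr2:180910687-180912207, 8729 bases from the annotated start of a gene of 16560 bases. Its fold enrichment, the authors' ratio of immunoprecipitated to input signal, was 12.4, 11.1 and 11.6 in normal 1, 2 and 3 and 25.3, 11.5 and 39.1 in TNBS 1, 2 and 3. TNBS 1 and TNBS 3 gave the high values and TNBS 2 lay among the normal ones, so the groups overlapped. Fold enrichments are each list's own and were not tested between lists.

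In Ythdf2 the long peak lay at chr4:132204132-132205715, 6541 bases from the start, with a fold enrichment of 28.3, 23.9 and 16.8 in normal 1 to 3 and 15.9, 9.01 and 16.4 in TNBS 1 to 3. Each normal value lay above each TNBS value, by little between normal 3 and TNBS 3. Within its list the peak stood at percentile 87.8, 88.6 and 80.3 of fold enrichment in normal 1 to 3. In TNBS 1 to 3 it stood at 71.9, 53.7 and 63.4. The difference was not tested, and the share of all positions separated in this way was not counted. In Ythdf3 the long peak lay at chr3:16203826-16205424, and its fold enrichment was 16.6, 13.6 and 8.93 across the normal mice and 11.6, 6.48 and 10.5 across the TNBS mice, with overlapping groups. The strand of Ythdf3 and Ythdc2 was not in the tables used here, so their positions are given from the lower-coordinate end.

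The shorter peaks set the 3 paralogs apart. Ythdf1 had a peak of 266 bases over its start, at chr2:180920684-180920949, and one of 80 bases at chr2:180919135-180919214, both listed in all libraries but TNBS 2. The peak at the start had a fold enrichment of 11.1, 13.2 and 8.80 in the normal lists and of 13.6 and 14.1 in TNBS 1 and TNBS 3. Ythdf3 had a peak of 338 bases that began 35 bases inside the gene, at chr3:16183183-16183520, in all 6 libraries, with a fold enrichment of 12.0, 17.0 and 8.81 in the lists of normal mice and 20.1, 7.2 and 25.3 in those of TNBS mice. TNBS 2 was the lowest and TNBS 1 and TNBS 3 the highest of the 6.

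Ythdf2 had no listed peak over its start in any library. Its other recurrent peak lay near the far end of the gene, at chr4:132185738-132186947, 822 bases from the annotated end. It was listed in normal 1, 2 and 3 with widths of 1210, 1113 and 1208 bases and in TNBS 1 with 511 bases, and it was absent from TNBS 2 and TNBS 3. It was a weak peak, at percentile 19.7, 33.7 and 21.8 of the score in the normal lists and 31.1 in TNBS 1. A peak of 80 bases at chr4:132210752-132210831 was listed in normal 1 alone, at percentile 19.4.

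Ythdc1, the nuclear reader, carried the most peaks of the 8 genes, 5, 6 and 6 in normal 1 to 3 and 5, 4 and 6 in TNBS 1 to 3. Its first peak, at chr5:86804221-86804591 over the start shown above, had a fold enrichment of 82.7, 61.5 and 49.6 across the normal mice and 44.7, 50.9 and 66.6 across the TNBS mice. These were the highest fold enrichments of any reader peak in every list and stood at percentile 95.3 to 99.2 of their lists, and the groups overlapped. Peaks 2 to 6, numbered from the start of the gene, lay at chr5:86815629-86815730, chr5:86816907-86817333, chr5:86820086-86820175, chr5:86833508-86833642 and chr5:86835684-86836659, the last of which reached the annotated end of the gene. Peak 2 was listed in normal 2, normal 3 and TNBS 3, at scores of 1778, 1556 and 1195.

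Within Ythdc1 the order of peaks 3, 5 and 6 by fold enrichment differed between the groups. Peak 3 had a fold enrichment of 29.3, 18.8 and 17.7 in the lists of normal mice and 8.61, 9.78 and 7.61 in those of TNBS mice. Peak 5 had 29.02, 22.4 and 18.3 in normal 1 to 3 and 6.81, 9.52 and 6.90 in TNBS 1 to 3. Peak 6, at the end of the gene, had 16.03, 14.02 and 14.5 across the normal mice and 14.99, 12.9 and 14.7 across the TNBS mice.
In each normal list peaks 3 and 5 therefore ranked above peak 6, and in each TNBS list both ranked below it. The ratio of peak 5 to peak 6 within a list was 1.81, 1.60 and 1.26 in the lists of normal mice and 0.454, 0.737 and 0.470 in those of TNBS mice, and the ratio of peak 3 to peak 6 was 1.83, 1.34 and 1.22 in normal 1 to 3 and 0.574, 0.757 and 0.519 in TNBS 1 to 3. TNBS 2 had the same order as TNBS 1 and TNBS 3. Over the series, 3333 pairs of peaks of 1 gene were listed once in each of the 6 libraries, and the order turned with the group in 135 of them, or 4.05%. Of the 7 reader pairs 6 came from Ythdc1 and 1 from Ythdf3, and the 2 that turned were both in Ythdc1 and shared peak 6, so they are not independent. Counted by gene, a pair turned in 113 of 1476 genes with such pairs, or 7.66%. This comparison was chosen after its values were seen and carries no test. When peaks were ranked by score in place of fold enrichment, the pair of peaks 5 and 6 turned, and the background was 1.71%. The pair of peaks 3 and 6 did not, since in TNBS 2 peak 3 scored 1228 and peak 6 scored 1037. With lists shortened to equal length the pair of peaks 3 and 6 turned and that of peaks 5 and 6 could not be compared, because peak 5 dropped out of TNBS 3, where it stood at percentile 35.4 of the score. Neither pair turned under both of these settings.

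**Figure D3:**
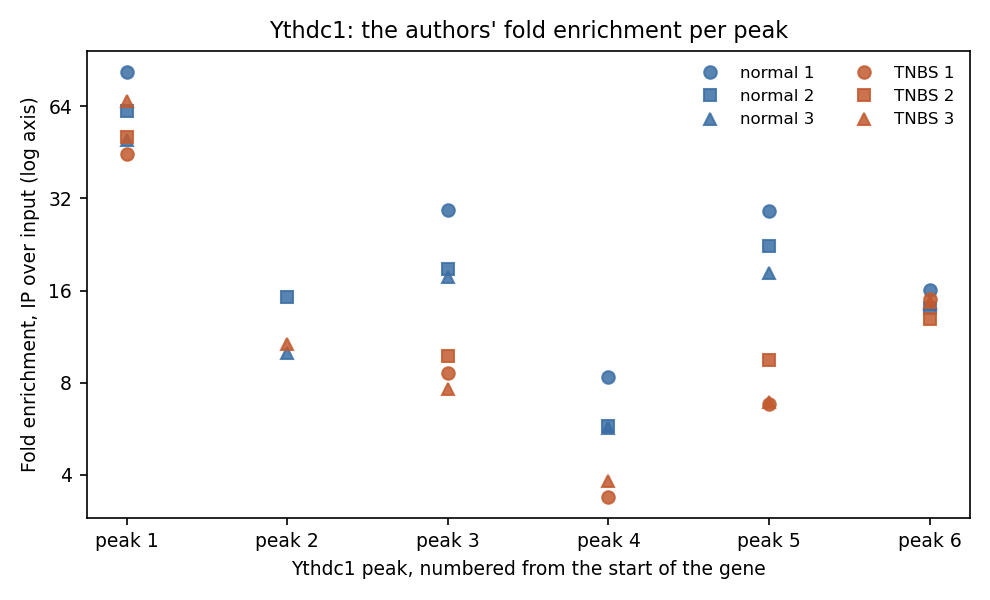
The authors' fold enrichment of immunoprecipitated over input signal (log axis) for the 6 peaks of Ythdc1 in each library, numbered from the start of the gene, with a missing symbol where no peak was listed. At peaks 3 and 5 the normal lists lie above the same lists' peak 6 and the TNBS lists lie below theirs, while peak 6 runs from 12.92 to 16.03 in all 6.

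Peak 4 of Ythdc1 was the weakest of its recurrent peaks. It was absent from TNBS 2, and its fold enrichment was 8.33, 5.80 and 5.70 in the normal lists and 3.40 and 3.82 in TNBS 1 and TNBS 3. By score it stood at percentile 46.1, 39.1 and 42.4 of the normal lists and at 3.06 and 1.16 of TNBS 1 and TNBS 3, close to the caller's threshold. Under each of 3 stricter settings it was listed in 3 of 3 normal and 0 of 3 TNBS libraries. These were a minimum fold enrichment of 4, where 1.55% of all positions were so listed, a caller's p of at most 1e-10, where 1.75% were, and equal list lengths, where 2.59% were. Peak 6 was 976, 963 and 976 bases wide across the normal mice and 815, 751 and 911 bases across the TNBS mice. It was the single one of 11 reader positions whose widths did not overlap between groups with TNBS lower, against 2.92% of 7337 positions, and 0 had TNBS higher, against 0.722%. Of the 11, 8 had the same bounds in every list, so their widths could not separate. The same held for 51.7% of the 7569 positions of the series listed in all 6 libraries.

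Ythdc2, the helicase, had 1 position, 254 bases at chr18:44828665-44828918, which began 935 bases from the lower-coordinate end of a gene of 61991 bases. It was listed in normal 1, normal 2, TNBS 1 and TNBS 3, with a fold enrichment of 10, 10.5, 5.55 and 11.6. By score it stood at percentile 32.3, 24.2, 0.616 and 29.4 of those lists, so its listing in TNBS 1 lay at the caller's threshold. Its presence therefore followed neither group.

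Igf2bp2, which binds and stabilises mRNA, had its recurrent peak at chr16:22162786-22163299, ending at the annotated start of a gene of 104291 bases. The fold enrichment was 11.6, 14.8 and 14.9 in the lists of normal mice and 13.0, 14.8 and 39.9 in those of TNBS mice. TNBS 3 stood high, and the other 5 lists lay close together. A further peak at chr16:22161246-22161450 was listed in TNBS 1 alone, at percentile 16 of the score.

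Fmr1, the gene of the fragile X protein, which binds mRNA and restrains translation, had its recurrent peak at chrX:68678541-68678867. Its first base moved between lists while its last base was the same in all 6, and it was 291 to 327 bases wide. The fold enrichment was 23.0, 22.2 and 19.0 in normal 1 to 3 and 16.4, 7.88 and 33.2 in TNBS 1 to 3, so the TNBS lists lay on both sides of the normal ones. A peak at chrX:68691501-68691786 was listed in TNBS 3 alone, at percentile 13.0 of the score.

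Prrc2a, a large RNA-binding protein with a proline-rich sequence, had the widest reader peak, 1842 bases at chr17:35155366-35157207, with the same bounds in all 6 lists. Its fold enrichment was 30.5, 24.4 and 19.5 across the normal mice and 39.9, 13.2 and 49.5 across the TNBS mice, with TNBS 2 lowest and TNBS 3 highest. A peak at the annotated end of the gene, chr17:35149088-35149600, was listed in TNBS 1 and TNBS 3 and in no normal library. It had a fold enrichment of 7.92 and 10.96, at percentile 37.7 and 41.9 of fold enrichment in those lists. By score it stood at percentile 72.3 and 73.3, above the lowest score in both lists. The caller's false discovery rate for it was 81.23% in TNBS 1 and 100% in TNBS 3. TNBS 1 and TNBS 3 are the libraries without male-specific Y peaks, and the part of that difference in this peak was not tested. The peak over the Prrc2a start shown above, 424 bases inside the gene span, was listed in normal 1 alone, at percentile 1.44 of the score.

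**Figure D4:**
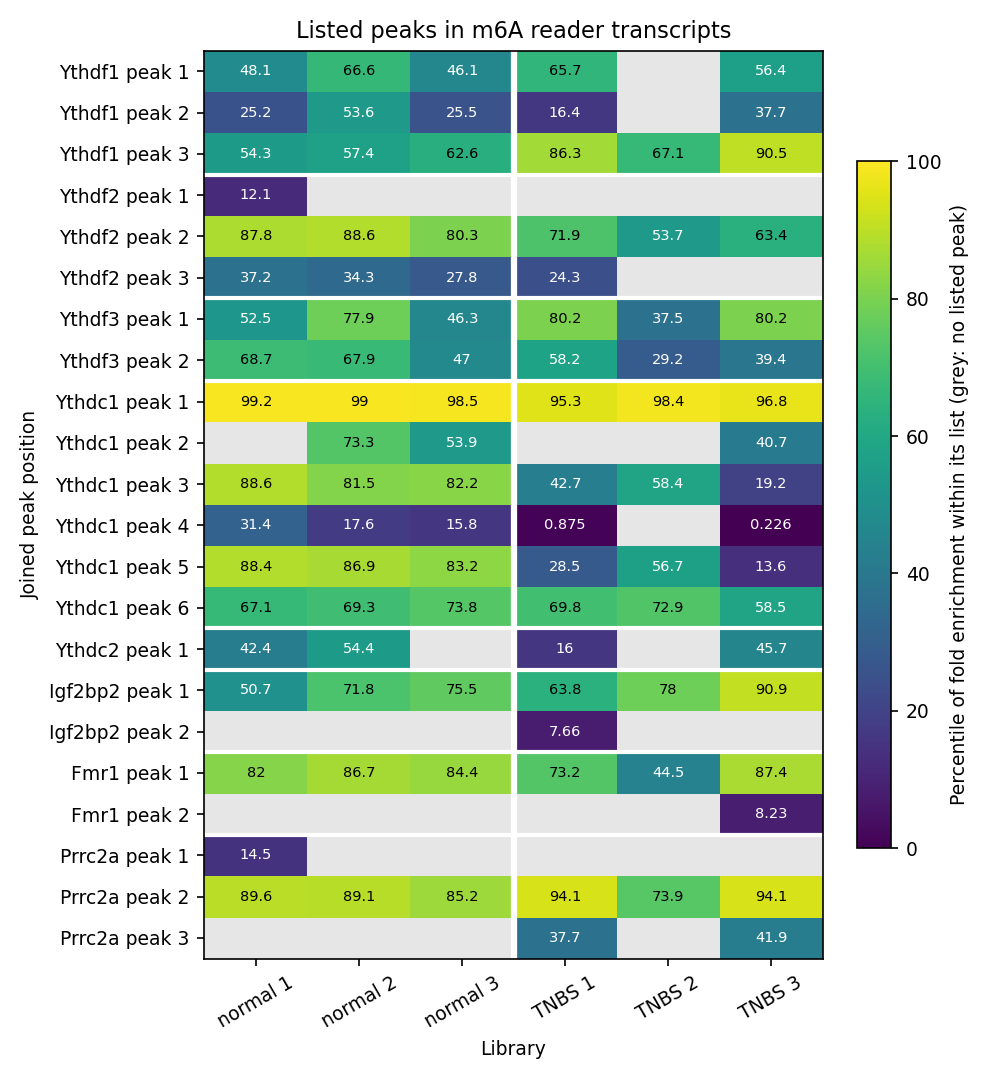
Percentile of fold enrichment within its own list for each of the 22 reader positions (rows, peaks numbered from the start of the gene) in each library (columns), with grey for no listed peak. Peak 1 of Ythdc1 stands at 95.3 to 99.2 throughout, and 5 positions are grey in every library of 1 group. Of these, 4 were listed in a single library, and the share of all positions grey in this way was not counted.

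Between colitis and normal colon, no reader position was restricted to a group. Positions listed in 3 of 3 TNBS and 0 of 3 normal libraries numbered 0 of 22, against 0.949% of all positions, and those listed in 3 of 3 normal and 0 of 3 TNBS libraries 0 of 22, against 1.54%. At the level of genes, 0 of 8 readers were restricted to TNBS, against 0.996% of genes, and 0 to normal, against 1.04%. With backgrounds this low, 0 of so few members is close to the rest of the series. Positions listed in at least 1 TNBS and no normal library numbered 3, and those listed in at least 1 normal and no TNBS library numbered 2. Among them were the 4 reader positions listed in a single library, which necessarily lack 1 group. Such positions made up 18.2% of the reader positions and 24.4% of all. The share of all positions absent from 1 group was not counted, so these numbers are not a trait of the readers.

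Reader peaks numbered 18, 17 and 16 in the lists of normal mice and 18, 11 and 18 in those of TNBS mice, or 17 ± 1 and 15.7 ± 4.04 (mean ± SD, n = 3 each). TNBS 2 was the low value, and without it the difference, TNBS minus normal, was 1 in place of -1.33. With TNBS 2 as the sole TNBS library it was -6. The bases covered by reader peaks were 11741, 11509 and 11380 in normal 1 to 3 and 11321, 9409 and 11116 in TNBS 1 to 3, with TNBS 2 lowest. They made up 0.0793%, 0.0785% and 0.0870% of the bases of all peaks of the normal lists and 0.0729%, 0.103% and 0.0722% of those of the TNBS lists, so by share TNBS 2 was the highest and the groups overlapped.

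Gene by gene, the number of peaks did not separate the groups for any reader. Of the 8 genes 0 had non-overlapping numbers, against 1.97% of all genes with more peaks in TNBS and 2.15% with fewer. The lowest p among the readers was that of Ythdf2, with 3, 2 and 2 peaks across the normal mice and 2, 1 and 1 across the TNBS mice (two-sided exact permutation test, p = 0.3, Benjamini-Hochberg adjusted p = 1 over 11548 genes). For Ythdc1 the means were 5.67 ± 0.577 and 5 ± 1 (exact permutation p = 0.7, adjusted p = 1), and for Ythdf1, with 3 peaks in each list but TNBS 2, which had 1, the exact permutation p was 1. The mean was lower in TNBS for 3 readers, higher for 3 and level for 2, and the median difference was 0 for the readers as for all genes. The smallest p that 3 against 3 allows is 0.1, so no gene could pass 0.05, and 476 of the 11548 genes reached it.

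**Figure D5:**
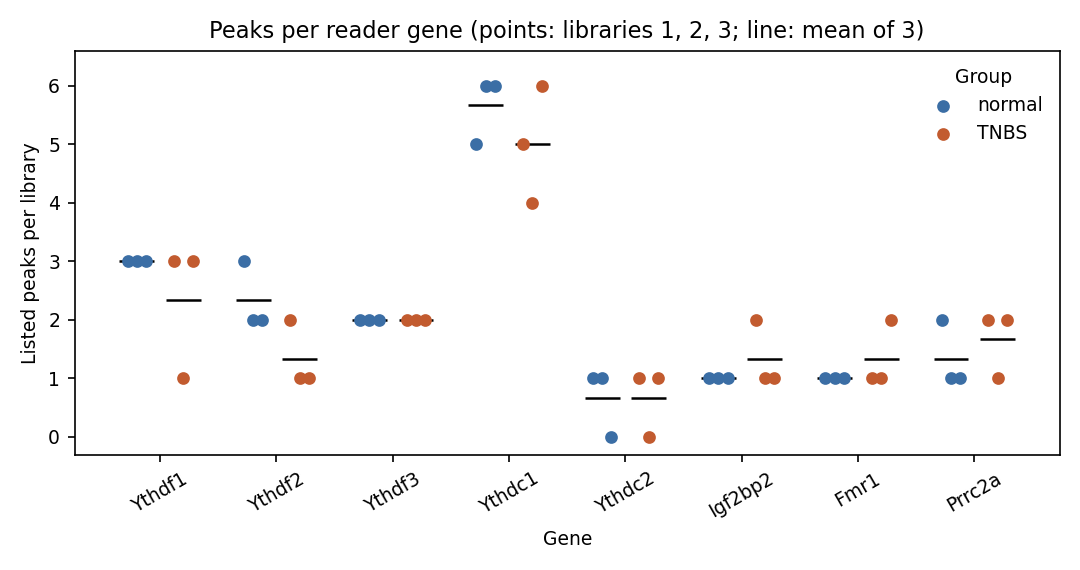
Number of listed peaks per library for each reader gene, with points for libraries 1, 2 and 3 of the normal and TNBS groups from left to right and a line at the mean of 3. Every reader has overlapping groups, and Ythdf2 runs from 2 to 3 in normal and from 1 to 2 in TNBS libraries.

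Genes with the most alike pattern were found by the percentile, among genes of a list, of the gene's highest fold enrichment. Among the 5325 other named genes with a peak in all 6 libraries, Gpatch2 lay nearest to Ythdc1, with a mean absolute difference of 0.432 percentile points over 6 libraries. Ppdpf lay nearest to Prrc2a at 1.59 points, Ccdc71l to Fmr1 at 2.37, Nrp1 to Ythdf2 at 2.55, Gucd1 to Ythdf1 at 4.10, Gtf2f2 to Ythdf3 at 5.30 and Auh to Igf2bp2 at 5.88. For Ythdc2, Arrb2 lay nearest at 5.80 points over 4 libraries, among 229 genes with a peak in the same 4 libraries.

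Of 13 related binding proteins 6 had a peak in any library and 3 in all 6, namely Eif3a, Prrc2b and Prrc2c. Rbmx, an RNA-binding protein of the nucleus, had 1 peak in each normal and 0 in each TNBS library, as 1.04% of all genes did. No peak was listed for Igf2bp1 and Igf2bp3, the paralogs of Igf2bp2, for Fxr1, a paralog of Fmr1, or for Hnrnpa2b1, Hnrnpc, Elavl1 and Snd1. Fxr2, another paralog of Fmr1, was listed in 3 normal libraries and 2 of TNBS mice.
Of 21 effectors, among them the subunits of the CCR4-NOT deadenylase that Ythdf2 recruits, 10 had a peak in any library and 3 in all 6 (Cnot4, Cnot6 and Upf1). Cnot7, a catalytic subunit, was listed in 3 normal libraries and 1 TNBS library, Cnot8 in 2 and 0, and Cnot10 in 1 and 3. The effectors without a listed peak were Cnot1, Cnot3, Cnot6l, Rida, Nxf1, Srsf3, Srsf10, Xrn1, Meioc, Matr3 and Pabpc1. Of 12 writers 10 had a peak in any library and 7 in all 6, and Mettl3 and Trmt112 had none, while the erasers Fto and Alkbh5 both had one in all 6. Whether a gene without a listed peak was expressed was not analysed here. The share of all annotated genes with a peak was not counted either, so the counts of these lists have no background.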

How the data were processed

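m6A immunoprecipitation and input libraries of 6 mice (12 samples) were compared by the authors, who deposited 1 list of mRNA peaks per mouse. Lists were matched to samples by name. Per the submitters' processing notes, CASAVA 1.8 and BWA were used with the human build hg19. Listed positions nevertheless overlapped the mouse gene of the same identifier in GRCm38.p6 for 99.1% to 99.5% of matched peaks, and are given in mouse coordinates. Peak names are those of MACS, per the file headers. The caller's settings are not given in the sources used here, and neither is the depth of any library, so the precision behind each peak is unknown.

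Per the file headers, each peak has a score (minus 10 log10 of the caller's p, lowest 50), a fold enrichment (ratio) and a false discovery rate in percent, as the authors deposited them. Listed starts lay 1 base before annotated gene starts far more often than on them (1259 against 70 in normal 1), so 1 was added to every start. Antibodies against m6A also bind the related cap-adjacent mark m6Am.

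Peaks were joined at an overlap of at least 1 base, and peaks per gene were compared with two-sided exact permutation tests over 11548 genes with Benjamini-Hochberg adjustment (Python 3.11.15, pandas 2.3.3, NumPy 2.4.6), a procedure tested on simulated data. Each p is the share of relabelings of the libraries that gave a mean difference at least as large. Nothing in the labels says that replicates were separate cages or days, so the p-values speak only of these samples. Alternatives were a stricter caller's p, a minimum fold enrichment, equal list lengths, each library left out, a 50% overlap, gene assignment by reference span and pairing by number. All 8 members and their positions were named, and genes of the binder, effector, writer and eraser lists were named where they lacked a peak or differed by 2 libraries between groups. Marker lists served to check the tissue. Members and lists were chosen with earlier results of these data known.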

Additional observations from a re-analysis of the deposited data

How the results depend on the processing

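Readers with a peak in all 6 libraries (7) and positions in all 6 (11) stayed within 1.5 times under each alternative run, from 6 to 7 and from 8 to 14. Positions restricted to normal colon numbered 0, and 1 (peak 4 of Ythdc1) under a caller's p of at most 1e-10, a minimum fold enrichment of 4 or lists shortened to their best 10971 peaks. With single libraries left out it was 0 to 1: the far-end peak of Ythdf2 became restricted to normal without TNBS 1, and that of Prrc2a to TNBS without TNBS 2 (0 to 1). Readers with non-overlapping peak numbers were 0, with 0 to 1 over the libraries left out (Ythdf2 without TNBS 1) and 1 (Ythdc1) with equal list lengths. With the replicate number as a block 1 reader, Ythdf2, had fewer peaks in each TNBS library than in its pair. Deviations of same-numbered libraries correlated at -0.0457, -0.175 and -0.0270 over genes, so the numbers were not taken to pair the mice. The Ythdc1 order turned in 2 pairs, in 1 with equal list lengths (peaks 3 and 6) and in 1, another, when ranked by score (peaks 5 and 6). It turned in 2 to 3 reader pairs over the libraries left out, where the Ythdf3 pair joined without normal 2 and peaks 3 and 5 of Ythdc1 without normal 1. Without TNBS 1 and TNBS 3, chosen after seeing the data, TNBS 2 alone, the shortest list, gave a difference of -6 peaks per library. For Prrc2a it gave -0.333 in place of 0.333. The shares of all genes and positions were not counted for the runs with libraries left out, nor for peak numbers at equal list lengths. The reader counts under those settings are therefore not a trait of the readers. The causes were not tested. Depth is unknown, so an absent peak does not show an absent mark.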
